A study of Mus musculus with 4 samples.

Results

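The vascular endothelial growth factor (VEGF) and angiopoietin systems were followed through 10 of the 32285 genes counted in this single-cell study of mouse lung. The set holds the VEGF receptor genes Kdr, Flt1 and Flt4, the neuropilin co-receptor genes Nrp1 and Nrp2, the angiopoietin receptor genes Tek and Tie1, and the ligand genes Angpt2, Vegfa and Vegfc. They were taken by gene symbol and read in endothelial cells, the cells that line blood and lymph vessels. The data were 4 libraries, 1 per group. Foxo1cKO PNX came from mice with a conditional knockout of Foxo1, M3cKO PNX from a conditional knockout labelled M3, and WT PNX from wild-type mice, all taken 7 days after pneumonectomy (PNX), the surgical removal of lung tissue. Sham came from wild-type mice after a sham operation. All lungs were digested with collagenase, depleted of CD45-positive cells and enriched for CD31-positive cells with magnetic beads. No source used here gives the driver of the knockouts, the gene behind the name M3, the time after the sham operation, or the age, sex and number of animals in each library. With 1 library per group there is no spread between animals, so no test was possible. The intervals given are exact 95% intervals that cover counting error only.

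VEGF-A is the main growth and survival signal of blood vessel endothelium and acts through the receptor tyrosine kinase VEGFR2, encoded by Kdr. VEGFR1, encoded by Flt1, binds VEGF-A tightly and acts largely as a decoy, while VEGFR3, encoded by Flt4, is the receptor for VEGF-C and guides lymphatic vessels. Neuropilins bind VEGF and hold it to its receptors. TIE2, encoded by Tek, keeps vessels quiescent when bound by angiopoietin 1, TIE1 is its partner receptor, and angiopoietin 2 is a context-dependent antagonist that endothelial cells release themselves. In the alveolus, the aerocyte is a broad capillary cell at the gas exchange surface that is known for high Kdr, and the general capillary cell is its smaller neighbour.

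A barcode was read as an endothelial cell when it held at least 500 genes, at most 10% mitochondrial UMIs, at least 2 UMIs over Pecam1, Cdh5, Cldn5, Egfl7, Ramp2 and Tie1, and 0 UMIs of Ptprc, Epcam, Col1a1 and Col1a2. A UMI, or unique molecular identifier, marks 1 captured RNA molecule. The gate held 3811 cells in Foxo1cKO PNX, 2491 in M3cKO PNX, 3887 in WT PNX and 4665 cells in Sham. Of the cells that passed the first pair of filters these were 59.0% in Foxo1cKO PNX, 44.9% in M3cKO PNX, 60.8% in WT PNX and a share of 87.7% in Sham. They held 12346381 UMIs in Foxo1cKO PNX, 6492399 in M3cKO PNX, 13691550 in WT PNX and 10493693 UMIs in Sham, and a level in CPM is a gene's UMIs per 1000000 of these sums. Tie1 is itself in the gate, so its level is partly set by the selection of cells. Without Tie1 in the gate 3794 cells remained in Foxo1cKO PNX, 2486 in M3cKO PNX, 3866 in WT PNX and 4655 cells in Sham. Foxo1 read 70.1 CPM in Foxo1cKO PNX, 185 in M3cKO PNX, 208 in WT PNX and 196 CPM in Sham, a level 2.97-fold lower in Foxo1cKO PNX than that of WT PNX. Which part of Foxo1 is deleted is not known here, and for M3 no such check was possible.

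The libraries differed in ways other than their labels. Xist, the RNA of the inactive X chromosome, read 154 CPM in Foxo1cKO PNX, 0 in M3cKO PNX, 132 in WT PNX and 0 CPM in Sham. The heat shock gene Hspa1b read 168 in Foxo1cKO PNX, 1356 in M3cKO PNX, 138 in WT PNX and 446 CPM in Sham. Summed B cell markers in the gate read 255 in Foxo1cKO PNX, 4654 in M3cKO PNX, 288 in WT PNX and 370 CPM in Sham. Summed epithelial markers read 601 in Foxo1cKO PNX, 515 in M3cKO PNX, 993 in WT PNX and 823 CPM in Sham, with Epcam at 0 by the gate. Between 68 and 111 cell barcodes were shared by each pair of libraries, and 552 occurred in more than 1 library. The part these differences play in the values that follow was not tested, except where a value is given beside a result.

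Endothelial cells of all libraries were clustered together without the 10 genes and without the other genes of both pathways, and clusters were named from marker genes. This gave aerocyte-like, general capillary-like, arterial-like, venous-like, lymphatic-like, systemic-type-like and proliferating-like classes. The systemic-type-like class is 1 cluster, 18, named from Prnd, Vwa1, Col15a1 and Col18a1. Its 10 leading genes by fold held Prnd and Vwa1 but also the DNA replication genes Hells, Mcm5 and Cdt1, so its name is less firm than the others. Cluster 7, with Fabp4 and Igfbp3 in the lead, had Col15a1, Prnd, Vwa1 and Meox2 among its enriched genes but none of them among its 10 leading ones, and stayed unnamed. A class is given a level in a library where it held at least 30 cells there. M3cKO PNX stood apart. Clusters 10 and 13 held 421 and 1186 of its cells (16.9% and 47.6%), against 1 and 17 cells of Foxo1cKO PNX, 3 and 22 of WT PNX and 9 and 53 of Sham, and stayed unnamed. Cluster 10 was led by Hspa1a, Hspa1b, Atf3, Zbtb16 and Ppp1r10, and also had Dbp and Per2 among its 10 leading genes. Cluster 13 was led by Zbtb16, Inhbb, Peg3, Nr1d1 and Dbp. The part of these genes' states in the levels of the 10 genes was not tested. In M3cKO PNX the general capillary-like class held 98 cells. General capillary-like cells are therefore also given from a second clustering, in which each library was centred on its own mean, chosen after seeing the data. There they numbered 904 in Foxo1cKO PNX, 876 in M3cKO PNX, 931 in WT PNX and 1773 cells in Sham.

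Kdr encodes VEGFR2, the main signalling receptor for VEGF-A, and lies on the minus strand of chromosome 5 at 75932827 to 75978458 (GRCm38, GENCODE M21, protein coding). Over all endothelial cells it read 1394 CPM in Foxo1cKO PNX (interval 1373 to 1415), 751 in M3cKO PNX (730 to 772), 1228 in WT PNX (1210 to 1247) and 1561 CPM in Sham (1538 to 1585). M3cKO PNX was the low library and Sham the high one. By class, Kdr was highest in aerocyte-like cells in every library, at 3513 CPM in Foxo1cKO PNX, 2665 in M3cKO PNX, 3460 in WT PNX and 4185 CPM in Sham. These cells made up 19.1% of Foxo1cKO PNX, 9.47% of M3cKO PNX, 16.8% of WT PNX and 17.5% of Sham cells. They held 57.9% of all endothelial Kdr UMIs in Foxo1cKO PNX, 46.1% in M3cKO PNX, 53.5% in WT PNX and a share of 66.7% in Sham. Systemic-type-like cells followed at 908 to 1099 CPM over the libraries with a value, a range that overlaps that of lymphatic-like cells, and arterial-like cells had the lowest median, 327 CPM.

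Nrp1 encodes the co-receptor that binds VEGF-A and class 3 semaphorins, and lies on the plus strand of chromosome 8 at 128358604 to 128503363. It read 556 CPM in Foxo1cKO PNX (543 to 569), 306 in M3cKO PNX (293 to 320), 493 in WT PNX (481 to 505) and 706 CPM in Sham (690 to 723), so M3cKO PNX was again the low library and Sham the high one. Aerocyte-like cells had the most Nrp1 in every library, at 1047 CPM in Foxo1cKO PNX, 791 in M3cKO PNX, 1058 in WT PNX and 1523 CPM in Sham. Lymphatic-like cells had the least, with 1 UMI in Foxo1cKO PNX, 0 in M3cKO PNX, and 11 each in WT PNX and Sham.

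Kdr and Nrp1 were the pair of genes that stood lower together in M3cKO PNX, and the bases just upstream of their RefSeq starts are shown for that reason. They are credited to RefSeq (GRCm38.p6) and are the first 240 of the 250 bases before each start, read 5′ to 3′ on the gene's strand. Capitals mark GGAAG or its reverse complement CTTCC, the core of sites for ETS factors, the family that endothelial enhancers are known for. The windows are chr5:75978466-75978705 on the minus strand for Kdr and chr8:128358823-128359062 on the plus strand for Nrp1. The Nrp1 window lies inside the GENCODE span given above, and its overlap with exons of that annotation is not given here.
Kdr: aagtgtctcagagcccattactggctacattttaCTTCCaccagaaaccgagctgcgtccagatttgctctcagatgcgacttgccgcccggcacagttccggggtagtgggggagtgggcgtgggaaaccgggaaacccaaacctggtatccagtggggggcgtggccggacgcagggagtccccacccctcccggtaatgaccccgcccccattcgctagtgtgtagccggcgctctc
Nrp1: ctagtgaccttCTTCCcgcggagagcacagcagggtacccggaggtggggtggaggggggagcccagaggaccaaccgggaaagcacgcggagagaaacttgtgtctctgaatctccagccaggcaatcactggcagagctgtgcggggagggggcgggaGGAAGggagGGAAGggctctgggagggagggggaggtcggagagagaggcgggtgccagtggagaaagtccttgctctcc
The Kdr window held the motif 1 time and the Nrp1 window 3 times, counting both strands. Of all 32851 promoters in the table, 62.2% held it. Neither window held the forkhead motif GTAAACA or the hypoxia response core ACGTG on either strand. Of all promoters in the table only 3.06% held GTAAACA and 15.9% held ACGTG, so most windows lack them. Of the 10 genes, 9 are in that table, all but Angpt2.

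Flt1, the gene of the decoy receptor VEGFR1, lies on the minus strand of chromosome 5 at 147561604 to 147726011 and was even across libraries. It read 1022 CPM in Foxo1cKO PNX, 1094 in M3cKO PNX, 998 in WT PNX and 1094 CPM in Sham. Venous-like and arterial-like cells had the highest medians over libraries, 1408 and 1319 CPM, and their ranges overlap. Lymphatic-like cells read 8.92 CPM in Foxo1cKO PNX, 15.4 in M3cKO PNX, 74.3 in WT PNX and 67.6 CPM in Sham, below every other class.

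Flt4, the gene of the VEGF-C receptor VEGFR3, lies on the plus strand of chromosome 11 at 49609263 to 49652739. It read 138 CPM in Foxo1cKO PNX, 147 in M3cKO PNX, 139 in WT PNX and 198 CPM in Sham over all endothelial cells, with Sham high and the PNX libraries close together. In lymphatic-like cells it read 2283 in Foxo1cKO PNX, 1797 in M3cKO PNX, 1739 in WT PNX and 2282 CPM in Sham. These cells held 30.1% of its UMIs in Foxo1cKO PNX, 36.7% in M3cKO PNX, 28.2% in WT PNX and a share of 42.2% in Sham. They made up 1.84% of Foxo1cKO PNX, 1.52% of M3cKO PNX, 1.83% of WT PNX and 3.52% of Sham cells. A pooled level alone does not tell fewer cells of a class from less RNA per cell. With classes weighted to WT PNX the log2 ratio of Flt4 in WT PNX against Sham was -0.15, beside -0.49 over all cells. The part of each was not tested.

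Nrp2, the gene of the co-receptor of VEGF-C in lymphatic and venous vessels, lies on the plus strand of chromosome 1 at 62703285 to 62818695. It read 82.1 CPM in Foxo1cKO PNX, 72.6 in M3cKO PNX, 94.0 in WT PNX and 73.9 CPM in Sham. Lymphatic-like cells were highest, at 1387 in Foxo1cKO PNX, 1227 in M3cKO PNX, 1089 in WT PNX and 1084 CPM in Sham. Venous-like cells followed, at 252 in Foxo1cKO PNX, 162 in M3cKO PNX, 263 in WT PNX and 277 CPM in Sham. Aerocyte-like and arterial-like cells stayed under 9 CPM in every library. Cluster 7 also carried Nrp2, at 179 CPM in Foxo1cKO PNX, 369 in WT PNX and 267 in Sham. Nrp2 overlaps the antisense gene Gm29083, and no source used here says whether the counting used strand, so its level is uncertain to that extent.

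Tek, the gene of the angiopoietin receptor TIE2, lies on the plus strand of chromosome 4 at 94739289 to 94874976. It read 670 CPM in Foxo1cKO PNX, 582 in M3cKO PNX, 704 in WT PNX and 757 CPM in Sham. General capillary-like, venous-like and arterial-like cells were highest, at medians of 1016, 956 and 917 CPM and with overlapping ranges, and lymphatic-like and aerocyte-like cells lowest. Aerocyte-like cells read 299 CPM in Foxo1cKO PNX, 148 in M3cKO PNX, 274 in WT PNX and 232 CPM in Sham. Across the 32 points given by class and library, the log2 levels of Kdr and Tek had a Pearson r of -0.637, a description over points that share libraries.

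Tie1, the gene of the partner receptor of TIE2 and a gene of the gate, lies on the minus strand of chromosome 4 at 118471191 to 118490061. It read 1291 CPM in Foxo1cKO PNX, 1400 in M3cKO PNX, 1156 in WT PNX and 1443 CPM in Sham. It was the most even of the set over classes, with medians between 1088 CPM in systemic-type-like cells and 1583 CPM in general capillary-like cells, and every neighbouring pair in that order had overlapping ranges.

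Among the ligands, Angpt2, the gene of the TIE2 antagonist, lies on the minus strand of chromosome 8 at 18690263 to 18741562. It was scarce, at 7.94 CPM in Foxo1cKO PNX (6.44 to 9.67, from 98 UMIs), 14.02 in M3cKO PNX (91 UMIs), 18.1 in WT PNX (248 UMIs) and 25.6 CPM in Sham (269 UMIs). Foxo1cKO PNX was the low library and Sham the high one. Among the named classes lymphatic-like cells had the highest median, at 22.3 CPM in Foxo1cKO PNX, 123 in M3cKO PNX, 284 in WT PNX and 67.6 CPM in Sham. Cluster 7 read 50.8 CPM in Foxo1cKO PNX (35.4 to 70.7), 140 in WT PNX (109 to 178) and 187 in Sham (116 to 286). Its other carriers were systemic-type-like cells, at 11.2 CPM in Foxo1cKO PNX, 234 in M3cKO PNX and 40.3 in WT PNX. Angpt2 overlaps Mcph1 on the other strand, so reads of that gene could be counted in it if strand was not used.

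Vegfa, the gene of VEGF-A, lies on the minus strand of chromosome 17 at 46016993 to 46032369 and was read in endothelial cells of every library. It read 726 CPM in Foxo1cKO PNX, 663 in M3cKO PNX, 949 in WT PNX and 635 CPM in Sham, with WT PNX high. Arterial-like and general capillary-like cells were highest, at medians of 1416 and 1278 CPM. The arterial-like class read 1683 CPM in Foxo1cKO PNX, 998 in M3cKO PNX, 2066 in WT PNX and 1149 CPM in Sham. Lymphatic-like cells were lowest, between 39.0 and 82.2 CPM over the libraries.

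Vegfc, the gene of the VEGFR3 ligand VEGF-C, lies on the plus strand of chromosome 8 at 54077606 to 54187096. It read 91.0 CPM in Foxo1cKO PNX, 113 in M3cKO PNX, 96.0 in WT PNX and 78.5 CPM in Sham. Venous-like cells carried it, at 312 CPM in Foxo1cKO PNX, 365 in M3cKO PNX, 350 in WT PNX and 349 CPM in Sham, with all libraries close together. They held 46.0% of its endothelial UMIs in Foxo1cKO PNX, 34.7% in M3cKO PNX, 52.5% in WT PNX and a share of 40.9% in Sham. Lymphatic-like cells, the highest class for its receptor gene Flt4, had 0 UMIs of Vegfc in Foxo1cKO PNX, M3cKO PNX and WT PNX and 1 UMI in Sham. A floor of 3 counts for a count of 0 is 13.4 CPM in Foxo1cKO PNX, 15.4 in M3cKO PNX and 9.70 in WT PNX.

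**Figure D1:**
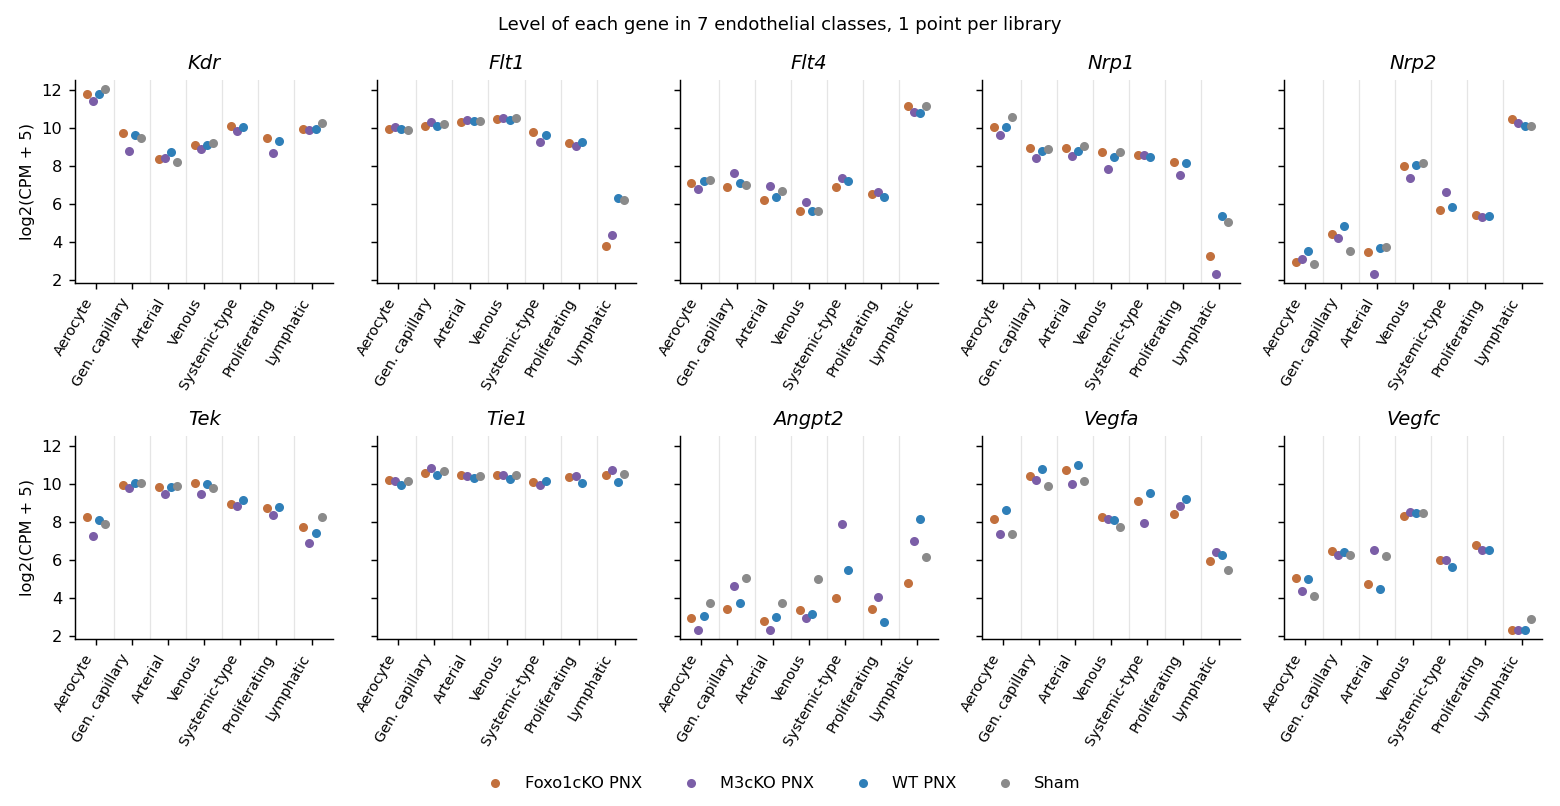
Level of each of the 10 genes, 1 panel per gene, as log2(CPM + 5) in 7 endothelial classes of the joint clustering, with 1 point per library where the class held at least 30 cells. Kdr and Nrp1 are highest in aerocyte-like cells, Flt4 and Nrp2 in lymphatic-like cells and Vegfc in venous-like cells, and Flt1 and Nrp1 are lowest in lymphatic-like cells.

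**Figure D2:**
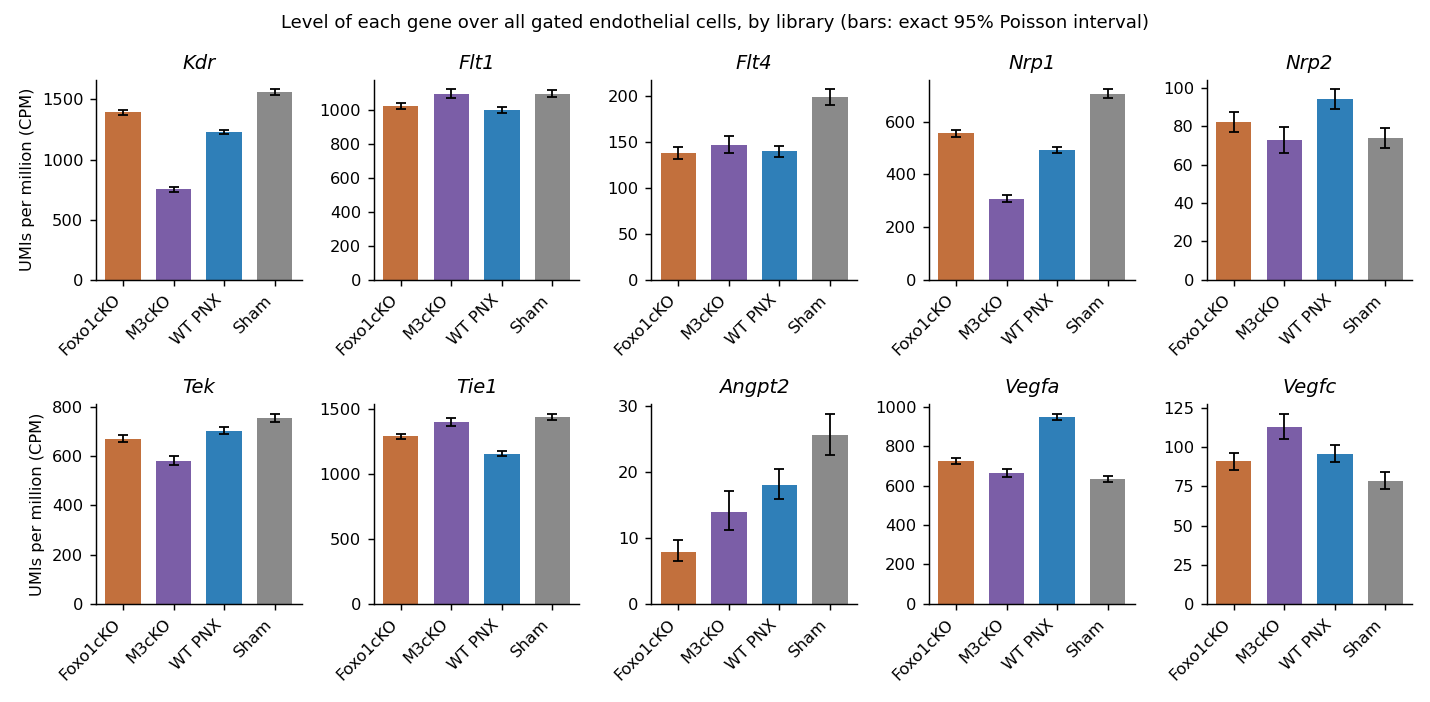
CPM of each of the 10 genes over all gated endothelial cells, 1 panel per gene and 1 bar per library, with exact 95% Poisson error bars that cover counting error only. Kdr and Nrp1 are lowest in M3cKO PNX, Angpt2 is lowest in Foxo1cKO PNX and Vegfa is highest in WT PNX.

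The first comparison, WT PNX against Sham, asks how endothelium differs a week into the response to lung removal. A gene is called apart here at 1.5-fold or more, on log2(CPM + 5), with at least 20 CPM in either library. This is a rule of size and not a test. Over all endothelial cells 0 of the 10 genes passed it, where 12.8% of all 7195 genes measured did. Vegfa came closest, at 949 CPM in WT PNX and 635 CPM in Sham, a ratio of 1.49 (1.45 to 1.54). At the other end stood Nrp1, at 493 CPM in WT PNX and 706 CPM in Sham, with a ratio of 0.698 (0.675 to 0.721), then Flt4 with 0.703 (0.660 to 0.748) and Angpt2 with 0.707 (0.592 to 0.843). The median log2 ratio of the 10 genes was -0.23, beside 0.04 for all genes measured.

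Vegfa was higher in WT PNX within the capillary and arterial classes. In general capillary-like cells of the library-centred clustering it read 1894 CPM in WT PNX and 936 CPM in Sham, a ratio of 2.02 (1.93 to 2.12), where 12.4% of genes passed the rule in either direction. In arterial-like cells it read 2066 CPM in WT PNX and 1149 CPM in Sham, a ratio of 1.80 (1.62 to 2.00), against a background of 28.3%. In aerocyte-like cells it read 391 CPM in WT PNX and 160 CPM in Sham, a ratio of 2.44 (2.18 to 2.74), against 10.7%. The aerocyte-like class is made of cluster 0, where Vegfa was low, and of the deeper cluster 14. In cluster 0 Vegfa read 79.4 CPM in WT PNX and 34.1 CPM in Sham, a ratio of 2.33 (1.68 to 3.27). In cluster 14 it read 748 CPM in WT PNX and 386 CPM in Sham, a ratio of 1.94 (1.71 to 2.19). Among the highest doublet scores were 22.7% of cluster 14 cells in WT PNX and 42.0% in Sham, beside 0.222% of cluster 0 cells in WT PNX and 4.88% in Sham. Venous-like cells had 266 CPM in WT PNX and 212 CPM in Sham, which did not pass the rule.

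Angpt2 was higher in WT PNX in 1 class and lower in a pair of others. In lymphatic-like cells it read 284 CPM in WT PNX and 67.6 CPM in Sham, a ratio of 4.21 (2.69 to 6.80), where 40.3% of genes passed the rule. The WT PNX value came from 88 UMIs in 21 of 71 cells, and 1 cell held 27 of them. Without the top cell of each library the levels were 209 CPM in WT PNX and 62.6 CPM in Sham. In general capillary-like cells of the library-centred clustering Angpt2 was lower in WT PNX, at 8.68 CPM from 18 UMIs, against 31.7 CPM from 96 UMIs in Sham, a ratio of 0.274 (0.156 to 0.457). In venous-like cells it was lower too, at 4.06 CPM from 8 UMIs in WT PNX, against 26.9 CPM from 26 UMIs in Sham, with a background of 19%. The difference between these classes was not tested.

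The remaining class values past the rule in this comparison were few. Vegfc in aerocyte-like cells read 27.7 CPM in WT PNX and 12.2 CPM in Sham, a ratio of 2.26 (1.47 to 3.54). In cluster 0 the ratio was 2.11 (0.827 to 5.81), from 14 UMIs in WT PNX and 8 in Sham. In cluster 14 it was 1.87 (1.14 to 3.15). Vegfc in arterial-like cells read 17.7 CPM from 18 UMIs in WT PNX and 68.2 CPM from 25 UMIs in Sham, a ratio of 0.259 (0.133 to 0.495). Tek in lymphatic-like cells read 165 CPM in WT PNX and 302 CPM in Sham, a ratio of 0.547 (0.385 to 0.766), and Vegfa there read 71.1 CPM from 22 UMIs in WT PNX and 39.0 CPM from 15 UMIs in Sham. Nrp2 was higher in WT PNX by the rule in general capillary-like cells of the joint clustering, where no library read over 23.4 CPM and 9.87% of genes passed. In the library-centred clustering Nrp2 did not pass in that class. Kdr and Nrp1 passed the rule in none of the classes compared. In aerocyte-like cells Kdr read 3460 CPM in WT PNX and 4185 CPM in Sham, and Nrp1 read 1058 CPM in WT PNX and 1523 CPM in Sham.

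The share of cells with a Vegfa UMI was 70.6% in WT PNX and 56.2% in Sham, with a median of 2640 UMIs per endothelial cell in WT PNX and 1841 in Sham. After every cell was thinned to 2000 UMIs, which left out 1147 WT PNX and 2654 Sham cells, the shares were 61.3% in WT PNX and 46.9% in Sham. B cells of the same libraries were read as cells outside the endothelium. They had a Vegfa UMI in 7.47% of 549 cells in WT PNX and 7.58% of 66 cells in Sham before thinning. Their medians were 1822 UMIs in WT PNX and 1511 in Sham. Myeloid cells carried Vegfa too, at 338 CPM in WT PNX and 697 CPM in Sham, so it is not limited to endothelium here. An epithelial-led cluster inside the gate held 4.79% of the Vegfa UMIs in WT PNX and 2.91% in Sham. In cells with a Y-linked UMI and none of Xist, 798 in WT PNX and 1196 in Sham, the log2 ratio of Vegfa was 0.42, beside 0.58 over all cells.

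The second comparison, M3cKO PNX against WT PNX, asks how the M3 knockout alters the endothelium at the same time after PNX. Of 9 genes that reached 20 CPM in either library 2 were lower in M3cKO PNX by the rule, Kdr and Nrp1, and 0 were higher. The rule was passed by 14.1% of all genes in either direction, by 8.65% in the lower direction and by 5.42% in the higher one, with a median log2 ratio of -0.11 over all genes and -0.28 over the 10 genes. Kdr was 1.64-fold lower (1.58 to 1.69), at 751 CPM in M3cKO PNX and 1228 CPM in WT PNX. Nrp1 was 1.61-fold lower (1.53 to 1.69), at 306 CPM in M3cKO PNX and 493 CPM in WT PNX. Relative to the median of all genes the log2 ratio of Kdr was -0.60 and that of Nrp1 was -0.57. With TMM scaling Kdr gave -0.58 and Nrp1 -0.55, and 0 of the genes then passed the rule. In the 761 M3cKO PNX and 798 WT PNX cells with a Y-linked UMI and none of Xist, Kdr gave -0.54 and Nrp1 -0.55, and again 0 passed.

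The share of cells with a Kdr UMI was 54.4% in M3cKO PNX and 77.3% in WT PNX, beside 1.69% of 236 B cells in M3cKO PNX and 4.19% of 549 in WT PNX. Median depths were 2070 UMIs in M3cKO PNX and 2640 in WT PNX endothelial cells, and 2056 in M3cKO PNX and 1822 in WT PNX B cells. At 2000 UMIs per cell the shares were 57.1% in M3cKO PNX and 72.1% in WT PNX. Aerocyte-like cells, the class with the most Kdr, were 9.47% of M3cKO PNX and 16.8% of WT PNX cells. With the classes weighted as in WT PNX the log2 ratio of Kdr was -0.47 in the joint clustering and -0.51 in the library-centred one, against -0.71 unweighted. The weighting used only classes of at least 30 cells in both libraries. In the joint clustering it thus left out clusters 10 and 13, with 421 and 1186 M3cKO PNX cells, and its general capillary-like class held 98 M3cKO PNX cells. The weighted ratio is therefore not that of all M3cKO PNX cells.

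Within classes Kdr and Nrp1 stood lower in M3cKO PNX in general capillary-like cells of the library-centred clustering. There Kdr read 463 CPM in M3cKO PNX and 825 CPM in WT PNX, a ratio of 0.561 (0.513 to 0.613), and Nrp1 read 276 CPM in M3cKO PNX and 468 CPM in WT PNX, a ratio of 0.590 (0.525 to 0.662). The background in that class was 18.4%. In the 98 M3cKO PNX and 1518 WT PNX general capillary-like cells of the joint clustering, where 34.9% of genes passed, Kdr passed at 440 CPM in M3cKO PNX and 779 CPM in WT PNX. Nrp1 did not, at 340 CPM in M3cKO PNX and 428 CPM in WT PNX, a ratio of 0.794 (0.589 to 1.05). Nrp2 and Angpt2 also passed there, from 2 and 3 UMIs in M3cKO PNX. Clusters 10 and 13, where most M3cKO PNX cells lay in the joint clustering, read 379 and 485 CPM of Kdr in M3cKO PNX. In proliferating-like cells Kdr read 408 CPM in M3cKO PNX and 616 CPM in WT PNX, and Nrp1 read 178 CPM in M3cKO PNX and 282 CPM in WT PNX, against a background of 25.1%. In aerocyte-like cells as a whole neither passed the rule, with Kdr at 2665 CPM in M3cKO PNX and 3460 CPM in WT PNX. Within that class Kdr gave a ratio of 0.716 (0.680 to 0.755) in cluster 0 and of 0.640 (0.573 to 0.712), beyond 1.5-fold, in cluster 14. Nrp1 gave 0.684 (0.620 to 0.753) in cluster 0 and 0.681 (0.560 to 0.822) in cluster 14. Cluster 14 held 36 cells in M3cKO PNX, and 44.4% of them were among the highest doublet scores, beside 22.7% in WT PNX. The part of this in the ratios was not tested. Venous-like cells had Nrp1 at 223 CPM in M3cKO PNX and 353 CPM in WT PNX, a ratio of 0.633 (0.528 to 0.754), and Nrp2 at 162 CPM in M3cKO PNX and 263 CPM in WT PNX, a ratio of 0.616 (0.498 to 0.756), against 25.8%.

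Vegfa over all endothelial cells read 663 CPM in M3cKO PNX and 949 CPM in WT PNX, a ratio of 0.698 (0.675 to 0.723), short of the rule. It passed it in general capillary-like cells of the library-centred clustering, at 1062 CPM in M3cKO PNX and 1894 CPM in WT PNX, a ratio of 0.561 (0.529 to 0.595). In the joint clustering it did not, at 1181 CPM in M3cKO PNX and 1763 CPM in WT PNX, a ratio of 0.670 (0.573 to 0.777). In aerocyte-like cells it read 158 CPM in M3cKO PNX and 391 CPM in WT PNX, a ratio of 0.403 (0.334 to 0.483), where 18% of genes passed. The deeper aerocyte cluster 14, with the higher Vegfa, held 36 of 236 aerocyte-like cells in M3cKO PNX and 203 of 653 in WT PNX. The ratio was 0.515 (0.319 to 0.8003) in cluster 0 and 0.625 (0.507 to 0.764) in cluster 14. The arterial-like class gave 0.483 (0.388 to 0.595), from 37 M3cKO PNX cells and with a background of 48%. In systemic-type-like cells Vegfa read 242 CPM in M3cKO PNX and 741 CPM in WT PNX, with 41.5% of genes past the rule. Venous-like cells read 282 CPM in M3cKO PNX and 266 CPM in WT PNX.

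Of the remaining genes, Tek in aerocyte-like cells read 148 CPM in M3cKO PNX and 274 CPM in WT PNX, a ratio of 0.542 (0.445 to 0.656). It was 0.548 (0.374 to 0.785) in cluster 0 and 0.824 (0.650 to 1.03) in cluster 14. Vegfc was higher in M3cKO PNX in general capillary-like cells of the library-centred clustering, at 141 CPM against 91.7 CPM in WT PNX, a ratio of 1.54 (1.26 to 1.88). In the joint clustering it was not, at 73.4 CPM from 11 UMIs in M3cKO PNX and 79.5 CPM from 289 UMIs in WT PNX. In aerocyte-like cells Vegfc had 13 UMIs in M3cKO PNX and 72 in WT PNX, a ratio of 0.557 whose interval, 0.283 to 1.01, spans 1. It was 0.647 (0.155 to 2.06) in cluster 0 and 0.814 (0.355 to 1.65) in cluster 14. Angpt2 in systemic-type-like cells read 234 CPM in M3cKO PNX and 40.3 CPM in WT PNX, from 32 UMIs in 9 of 40 cells of M3cKO PNX and 34 UMIs in 15 of 179 cells of WT PNX. In the library-centred clustering, where that class held 208 M3cKO PNX and 267 WT PNX cells, Angpt2 read 57.4 CPM in M3cKO PNX and 31.7 CPM in WT PNX. Nrp2 in the systemic-type-like class read 95.2 CPM from 13 UMIs in M3cKO PNX and 52.1 CPM from 44 UMIs in WT PNX, and Vegfc in arterial-like cells read 85.9 CPM from 8 UMIs in M3cKO PNX and 17.7 CPM from 18 UMIs in WT PNX. The lymphatic-like class held 38 cells in M3cKO PNX, with 40.8% of genes past the rule. Angpt2 there read 123 CPM in M3cKO PNX and 284 CPM in WT PNX, and Tie1 1669 CPM in M3cKO PNX and 1089 CPM in WT PNX. Flt1 had 3 UMIs there in M3cKO PNX and 23 in WT PNX, and Nrp1 0 in M3cKO PNX and 11 in WT PNX. Tie1 over all cells read 1400 CPM in M3cKO PNX and 1156 CPM in WT PNX, with the gate's own selection on it.

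**Figure D3:**
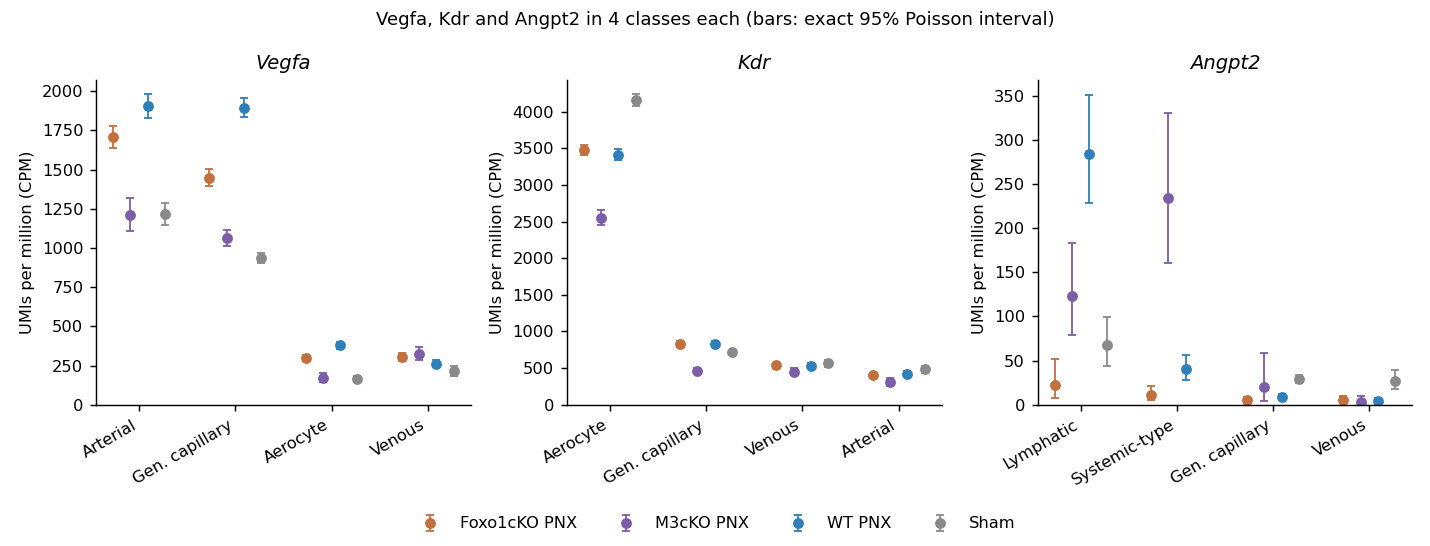
Levels of Vegfa, Kdr and Angpt2 in 4 classes each, 1 point per library in CPM, with exact 95% Poisson bars that cover counting error only. Vegfa and Kdr are from the library-centred clustering and Angpt2 from the joint clustering. Vegfa in general capillary-like cells is highest in WT PNX, Kdr there is lowest in M3cKO PNX, and Angpt2 in lymphatic-like cells is lowest in Foxo1cKO PNX.

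The third comparison, Foxo1cKO PNX against WT PNX, asks the same of a Foxo1 knockout, and it shares the WT PNX library with the second. FOXO1 is a transcription factor of quiescent endothelium and is known to drive Angpt2. These libraries were close. Of 9 genes measured 0 passed the rule, where 1.2% of all genes did, and the median log2 ratio was -0.04 over the 10 genes and -0.01 over all genes measured. Vegfa was the largest difference among the 9, at 726 CPM in Foxo1cKO PNX and 949 CPM in WT PNX, a ratio of 0.765 (0.744 to 0.786). Kdr and Nrp1 read slightly more in Foxo1cKO PNX, with ratios of 1.13 (1.11 to 1.16) and 1.13 (1.09 to 1.17).

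Angpt2 lay under the minimum of 20 CPM in both libraries and so was not counted, at 7.94 CPM in Foxo1cKO PNX and 18.1 CPM in WT PNX. It was 2.28-fold lower in Foxo1cKO PNX (1.80 to 2.91). With no minimum level it passes the rule, where 0.81% of genes then do. Angpt2 was lower in the classes that carried it most, and not only in these. In lymphatic-like cells Angpt2 read 22.3 CPM from 5 UMIs in 70 cells of Foxo1cKO PNX, against 284 CPM from 88 UMIs in 71 cells of WT PNX, a ratio of 0.0784 (0.0248 to 0.190). There 36.1% of genes passed the rule. Without the top cell of each library the levels were 17.9 CPM in Foxo1cKO PNX (4.88 to 45.9) and 209 CPM in WT PNX (160 to 269), and 5 Foxo1cKO PNX and 21 WT PNX cells had a UMI. In systemic-type-like cells it read 11.2 CPM from 9 UMIs in Foxo1cKO PNX and 40.3 CPM from 34 UMIs in WT PNX, a ratio of 0.279 (0.118 to 0.594), against 11.8%. In cluster 7 it read 50.8 CPM in Foxo1cKO PNX and 140 CPM in WT PNX. In general capillary-like cells, where it was under 20 CPM in both libraries, Angpt2 was lower too. In the library-centred clustering Foxo1cKO PNX was the lowest library there, at 2.68 CPM. In the joint clustering that class had 20 UMIs in 1501 Foxo1cKO PNX cells and 30 UMIs in 1518 WT PNX cells. In venous-like and aerocyte-like cells, with 8 or 9 UMIs per library, the ratio intervals spanned 1. B cells held 0 UMIs of Angpt2 in 539 Foxo1cKO PNX and 549 WT PNX cells.

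Few other class values passed. Vegfa in proliferating-like cells read 341 CPM in Foxo1cKO PNX and 585 CPM in WT PNX, a ratio of 0.583 (0.510 to 0.664), where 7.43% of genes passed. Lymphatic-like cells had 2 UMIs of Flt1 in Foxo1cKO PNX and 23 in WT PNX, and 1 UMI of Nrp1 in Foxo1cKO PNX and 11 in WT PNX. Flt1 and Nrp1 are otherwise genes of blood vessel endothelium, and both had their lowest levels in this class in every library. None passed in general capillary-like, arterial-like, venous-like or aerocyte-like cells, each class taken whole, with backgrounds of 3.13%, 9.46%, 4.51% and 2.38%. Within the aerocyte-like class Vegfa in cluster 14 read 470 CPM in Foxo1cKO PNX and 748 CPM in WT PNX, a ratio of 0.629 (0.569 to 0.694) and beyond 1.5-fold. In cluster 0 it read 64.3 CPM in Foxo1cKO PNX and 79.4 CPM in WT PNX, a ratio of 0.810 (0.603 to 1.08). Among the highest doublet scores were 7.27% of cluster 14 cells in Foxo1cKO PNX and 22.7% in WT PNX. The part of this in the ratio was not tested.

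**Figure D4:**
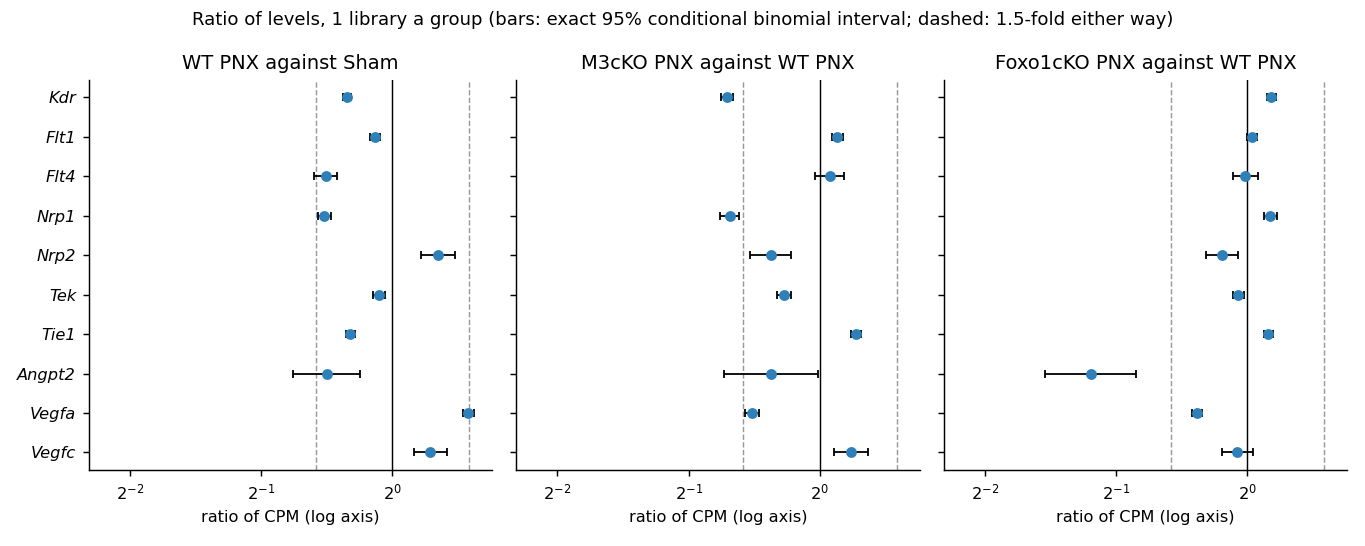
Ratio of each gene's CPM over all gated endothelial cells in the 3 comparisons, 1 panel per comparison, on a log axis marked in powers of 2, with exact 95% intervals that cover counting error only and dashed lines at 1.5-fold either way. Kdr and Nrp1 lie beyond the line in M3cKO PNX against WT PNX, and Angpt2 in Foxo1cKO PNX against WT PNX, where it was under 20 CPM in both libraries.

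The other genes of both pathways were read as a list of 32 ligands, co-regulators and signal transducers, of which 19 reached 20 CPM in each comparison. The counts of this list and of the lists after it stand beside shares of all genes past the rule of 12.8% in WT PNX against Sham, 14.1% in M3cKO PNX against WT PNX and 1.2% in Foxo1cKO PNX against WT PNX. In WT PNX against Sham 1 was higher and 1 lower, with a median log2 ratio of -0.01. Sema3f, a neuropilin 2 ligand, was lower, at 130 CPM in WT PNX and 304 CPM in Sham, and Pik3r1, a regulatory subunit of PI3-kinase, was higher, at 106 CPM in WT PNX and 62.8 CPM in Sham. In M3cKO PNX against WT PNX again 1 was higher and 1 lower, with a median of -0.02. Sema3f read 358 CPM in M3cKO PNX and 130 CPM in WT PNX, and Pik3r1 62.1 CPM in M3cKO PNX and 106 CPM in WT PNX. In Foxo1cKO PNX against WT PNX 0 passed, with a median of 0.03. Ptprb, the phosphatase that restrains TIE2, read 1913 CPM in Foxo1cKO PNX, 1581 in M3cKO PNX, 2063 in WT PNX and 2170 CPM in Sham.

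Of 18 genes known to be induced by VEGF or to mark tip cells, the leading cells of a vessel sprout, 15 were measured in WT PNX against Sham, with 1 higher and 2 lower, and a median log2 ratio of 0.06. Egr3 was higher, at 27.0 CPM in WT PNX and 16.0 CPM in Sham. Plaur, the urokinase receptor, read 129 CPM in WT PNX and 202 CPM in Sham, and Trp53i11 34.3 CPM in WT PNX and 56.2 CPM in Sham. In M3cKO PNX against WT PNX 2 of 15 were higher and 3 lower, with a median of -0.20. Apln, a tip cell peptide, read 90.9 CPM in M3cKO PNX and 211 CPM in WT PNX, Hlx 128 CPM in M3cKO PNX and 215 CPM in WT PNX, and Esm1 20.6 CPM in M3cKO PNX and 33.5 CPM in WT PNX. Plaur went the other way, at 315 CPM in M3cKO PNX and 129 CPM in WT PNX, as did Trp53i11. In Foxo1cKO PNX against WT PNX 1 of 17 was higher and 1 lower, with a median of 0.07. Igfbp3 read 54.8 CPM in Foxo1cKO PNX and 9.93 CPM in WT PNX, and Esm1 17.0 CPM in Foxo1cKO PNX and 33.5 CPM in WT PNX.

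Of 12 hypoxia genes 7 were measured in each comparison. In WT PNX against Sham Hif1a was higher, at 62.1 CPM in WT PNX and 32.9 CPM in Sham, and Pfkfb3, a glycolytic enzyme, was lower, at 26.7 CPM in WT PNX and 48.7 CPM in Sham, with a list median of -0.12. In M3cKO PNX against WT PNX 2 were higher and 0 lower, with a median of 0.22. Pfkfb3 read 91.7 CPM in M3cKO PNX and 26.7 CPM in WT PNX, and Ndrg1 172 CPM in M3cKO PNX and 96.8 CPM in WT PNX. In Foxo1cKO PNX against WT PNX 0 passed, with a median of -0.08.

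The genes most like each of the 10 in level were sought over the same 32 points of class and library, by Pearson r of log2(CPM + 5) among 9237 genes. These are descriptions of points that share libraries. Kdr was most like Elmo1 (0.898), Chst1 (0.892) and Itgb5 (0.869), and Nrp1 most like Tmem176b (0.956), Esam (0.937) and Ceacam1 (0.923). Flt1 was most like Esam (0.949), Flt4 most like Reln (0.949) and Nrp2 most like Nr2f2 (0.933). Tek was most like Ptprb (0.930), Tie1 most like Grn (0.759) and Angpt2 most like Trp53i11 (0.842). Vegfa was most like Gja4 (0.926) and Vegfc most like Arhgap20 (0.914). Chst1, Reln, Nr2f2 and Gja4 are among the markers from which the classes were named. Within the set, Flt1 and Nrp1 had the r of 0.907 and Flt1 and Flt4 the r of -0.924. Lymphatic-like cells stood far from the rest in each of these genes. Their medians were 41.5 CPM for Flt1, 16.5 for Nrp1 and 2039 for Flt4. The nearest named class had 586 CPM for Flt1, 282 for Nrp1 and 143 for Flt4. The r without lymphatic-like cells was not computed.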

How the data were processed

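UMI counts were used as deposited by the authors, whole and not normalized. Mapping was to mm10 by Cell Ranger (version 2.1.1), per the labels' protocols. R 3.4.4 also appears in the submitters' processing notes, and software version 3.0.0 stands in the matrix header. Whole libraries held 27320974 (Foxo1cKO PNX), 26848160 (M3cKO PNX), 30445999 (WT PNX) and 16197681 (Sham) UMIs, and no barcode held fewer than 500. Counts were summed over gated cells and scaled to CPM in Python 3.11.15 with numpy 2.4.6, scipy 1.17.1 and pandas 2.3.3. Levels have exact Poisson intervals, ratios exact conditional binomial ones and shares of cells exact binomial ones. Clustering used scanpy 1.11.5 (2000 variable genes, 40 components, 20 neighbours, Leiden resolution 1). Clusters of other cells were kept in the pooled gate and left out of the classes; no doublets were removed, and removal by Scrublet score is an alternative. TMM factors came from edgeR 4.0.16 in R 4.3.3. The 1.5-fold rule on summed counts and the Poisson interval were tested on simulated data. The summing over cells and the ratio and share intervals were not. All 10 genes are named; of each further list up to 4 with the largest ratio per comparison could be named. The genes, lists and rules were chosen with earlier results of these data known. Gene positions are from GENCODE M21.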

Additional observations from a re-analysis of the deposited data

Results flagged for a closer look

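In 4 cases a gene differed one way in 1 class and the other way in another class under the same comparison, with the whole counting interval of each ratio on its own side of 1. In WT PNX against Sham the log2 ratio of Angpt2 was 2.00 in lymphatic-like cells and -1.82 in venous-like cells. Lymphatic-like cells held 88 UMIs of it in WT PNX and 26 in Sham, and venous-like cells 8 in WT PNX and 26 in Sham. Against the same 2.00 stood -1.35 in general capillary-like cells of the joint clustering, where Angpt2 had 30 UMIs in WT PNX and 157 in Sham. Most general capillary-like cells lay in cluster 5 in WT PNX and in cluster 1 in Sham. In WT PNX against Sham the log2 ratio of Vegfc was 0.92 in aerocyte-like cells and -1.69 in arterial-like cells, where it had 18 UMIs in WT PNX and 25 in Sham. In M3cKO PNX against WT PNX that of Angpt2 was 2.40 in systemic-type-like cells, from 40 M3cKO PNX and 179 WT PNX cells, and -1.18 in lymphatic-like cells, from 38 M3cKO PNX and 71 WT PNX cells. In each case the difference was not tested.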

How the results depend on the processing

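No paired analysis was possible because each group is 1 library. Each of the 3 counts of genes 1.5-fold apart was recomputed under 16 alternatives, and no log2 ratio past the rule in the main counts changed its sign. For WT PNX against Sham, where the main count was 0, it was 2 with at most 5% mitochondrial UMIs (Vegfa, Vegfc; 15.4% of all genes), 2 with at least 1000 genes per cell (Nrp1, Vegfa), 2 after thinning to 2000 UMIs and 2 for the mean over cells (Angpt2, Vegfa each), and 1, Vegfa, with Tie1 dropped from the gate, with at least 4 gate UMIs, without dividing cells and with classes weighted to WT PNX in either clustering. In cells with a Y-linked UMI and none of Xist it was 4 (Kdr, Flt4, Nrp1, Vegfc), beside 18.3% of all genes. For M3cKO PNX against WT PNX, where it was 2, it was 4 with at most 5% mitochondrial UMIs (Kdr, Nrp1, Nrp2, Vegfa; 19% of all genes), 0 with TMM scaling (13%), 0 in cells with a Y-linked UMI and none of Xist (16.4%) and 1, Vegfa, with library-centred classes weighted to WT PNX. With joint classes weighted to WT PNX it stayed at 2 but the genes were Angpt2 and Vegfa, and the log2 ratio of Angpt2, -0.28 over all cells, was 0.72. That weighting left out clusters 10 and 13 and gave the systemic-type-like class, with 40 M3cKO PNX cells, its WT PNX weight. For Foxo1cKO PNX against WT PNX, where it was 0, it was 1, Angpt2, with no minimum level (0.81%) and in cells with a Y-linked UMI and none of Xist (3.83%). Under the other alternatives the share lay between 8.51% and 15% for WT PNX against Sham, 9.38% and 16.8% for M3cKO PNX against WT PNX, and 0.89% and 4.49% for Foxo1cKO PNX against WT PNX. The cause of these shifts was not tested. Over the 15 of them that can move a ratio, the log2 ratio of Kdr in M3cKO PNX against WT PNX lay between -0.97 and -0.47, that of Nrp1 between -0.91 and -0.42, that of Vegfa in WT PNX against Sham between 0.42 and 0.97, and that of Angpt2 in Foxo1cKO PNX against WT PNX between -1.10 and -0.67. At resolution 0.5, 199 of 250 class levels moved by less than their counting interval, and in the library-centred clustering 225 of 260. Leaving out the clusters of other cells, leaving out cluster 14, and the library-centred clustering and weighting were chosen after seeing the data. Depth limits Angpt2 most, with 91 to 269 UMIs per library.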

Other observations

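Cells carried along with the endothelium expressed ligands of the same receptors. In fibroblasts, gated on Col1a1 and Col1a2, Vegfd, a further VEGFR3 ligand, read 248 CPM in 58 cells of Foxo1cKO PNX, 380 CPM in 65 cells of M3cKO PNX and 296 CPM in 73 cells of WT PNX. In endothelial cells it read 5.18 CPM in Foxo1cKO PNX, 2.31 in M3cKO PNX and 4.16 in WT PNX. Angpt1, the TIE2 agonist, read 128 CPM in fibroblasts of Foxo1cKO PNX, 101 in M3cKO PNX and 170 in WT PNX, beside endothelial levels of 4.21 CPM in Foxo1cKO PNX, 3.39 in M3cKO PNX and 5.48 in WT PNX. Sham had 23 fibroblasts and gets no value. Few fibroblasts pass a CD31 selection, so these cells need not stand for all lung fibroblasts.

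Myeloid cells carried Vegfa, at 302 CPM in Foxo1cKO PNX (262 to 347), 323 in M3cKO PNX (299 to 348), 338 in WT PNX (292 to 388) and 697 in Sham (554 to 866). Sham was the high library there, whereas it was the low library for Vegfa in endothelial cells. The Sham value came from 81 UMIs in 61 cells. Lymphocytes read 26.3 to 99.0 CPM of Vegfa in T or NK cells and 42.1 to 63.0 CPM in B cells. Of the other ligand genes in endothelium, Vegfb read between 11.7 and 16.7 CPM and Pgf between 1.17 and 2.31 CPM over the libraries, and Angpt4 had 0 UMIs in all 4, for which a floor of 3 counts is 0.462 CPM in the shallowest, M3cKO PNX.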
